A study of Mus musculus with 11 samples.

Results

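The 10 genes described here belong to bone morphogenetic protein (BMP) signalling, and were followed through RNA-seq of the E12.5 mouse forebrain with and without Kif20a, which encodes a mitotic kinesin of the central spindle. They are the ligands Bmp2, Bmp4, Bmp6, Bmp7 and Gdf7, the secreted antagonist Grem1, and the target genes Msx1, Msx2, Id1 and Id3. The genes were taken from the rows that carry these symbols, 10 of the 20475 genes in each of 2 tables. These members were chosen by their knockout and wild-type values in these same libraries, so their own fold changes are given here as a description and carry no P value.

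BMPs are secreted ligands that bind serine/threonine kinase receptors, and these phosphorylate Smad1, Smad5 and Smad9, which enter the nucleus with Smad4 and switch on genes such as the Id and Msx families. Antagonists bind the ligands outside the cell. In the dorsal telencephalon BMPs are made along the midline, in the roof plate, the cortical hem and the choroid plexus, and they are known for patterning these structures. Several of them are also expressed in the cranial mesenchyme and the surface ectoderm that cover the brain.

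The germline comparison had 3 wild-type (WT) and 3 knockout (KO) libraries. The knockout-first allele of these embryos carries a LacZ and neomycin resistance cassette inside Kif20a and descends from 1 ES cell clone, whose chimeras were crossed to C57BL/6J mice. The inducible comparison had 2 WT and 3 KO libraries. Here the cassette had been taken out, the remaining floxed exons were deleted by CreERT2 driven by Nestin, a promoter active in neural progenitors, and tamoxifen had been injected into the pregnant females on consecutive days before collection. The labels call the inducible controls wild type and say no more of their alleles. Elsewhere in the study the inducible controls were floxed littermates without CreERT2, so these may also have carried floxed alleles, and the presence of Cre may then have differed between the groups along with the deletion. Wild-type and mutant embryos were littermates at embryonic day 12.5 in both comparisons. The labels name the tissue forebrain and the cells neural, whereas the study names cortical cells. They do not say which library came from which embryo, so the spread given here is that between libraries and may be partly technical.

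The deposited values are read counts per gene normalized between the libraries of a table. The total per library lay between 13048716 and 15551274 for the germline libraries and between 24118520 and 24497307 for the inducible ones. Kif20a fell in the germline KO to 17.3% of WT, with 2477 ± 194 normalized counts in WT and 429 ± 67.1 in KO (SD, n = 3 libraries each). In the inducible knockouts it fell from 4802 ± 59.4 (n = 2) to 2964 ± 143 (n = 3), 61.7% of wild type. The groups did not overlap in either comparison, and the exact two-sided permutation test over libraries gave p = 0.1 in both, the smallest it can give. Cortical markers such as Emx1, Pax6 and Lhx2 were present in every library. Germline knockout replicate 2 stood apart from the other 5 libraries, with the highest sum of cortex and neural progenitor markers and the lowest mesenchymal marker sum. The sum of 4 Y-linked genes was 1714, 4582 and 1376 normalized counts in germline wild-type replicates 1 and 3 and knockout replicate 3, and 9.83, 4.49 and 0 in wild-type replicate 2 and knockout replicates 1 and 2. Among the inducible libraries it lay between 2389 and 3209 in the 3 KO libraries against 1.96 and 4.24 in WT, so there the sex of the embryos and the genotype cannot be told apart.

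The promoters of a ligand, the antagonist and a target are shown because the log2 fold changes of the tested members shared a sign within each comparison. Regulation through these promoters was not tested. The set of RefSeq promoter sequences used here held 7 of the 10 members, without Bmp2, Bmp7 and Id1. The 250 bases before the RefSeq start were placed by exact match in NCBIM37 (mm9). They lie at chr14:47010345-47010594 on the minus strand for Bmp4, at chr2:113598806-113599055 on the minus strand for Grem1, and at chr5:38215825-38216074 on the minus strand for Msx1. All of these lie upstream of the annotated span of their own gene, and overlap with other genes was not checked. Each is written 5′ to 3′ on the strand of its gene, and capitals mark GGCGCC, a GC-rich motif bound by Smad1 and Smad5, and CAGAC, a Smad-binding element, searched on both strands.
Bmp4: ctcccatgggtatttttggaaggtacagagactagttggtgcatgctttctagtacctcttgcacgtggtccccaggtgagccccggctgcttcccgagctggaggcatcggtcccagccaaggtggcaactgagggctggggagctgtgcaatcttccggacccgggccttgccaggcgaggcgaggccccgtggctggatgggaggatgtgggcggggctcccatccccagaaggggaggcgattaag
Grem1: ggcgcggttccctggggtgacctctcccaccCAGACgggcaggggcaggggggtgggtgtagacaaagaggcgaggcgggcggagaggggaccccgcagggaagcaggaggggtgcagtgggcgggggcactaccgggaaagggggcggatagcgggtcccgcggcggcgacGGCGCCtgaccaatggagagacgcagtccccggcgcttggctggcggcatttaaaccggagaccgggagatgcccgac
Msx1: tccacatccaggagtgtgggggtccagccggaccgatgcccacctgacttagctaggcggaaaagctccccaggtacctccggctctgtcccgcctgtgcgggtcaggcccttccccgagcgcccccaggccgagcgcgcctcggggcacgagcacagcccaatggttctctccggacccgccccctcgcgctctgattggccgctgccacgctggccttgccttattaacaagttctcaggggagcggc
GGCGCC was found in 1 of the 7 promoters, that of Grem1, and CAGAC in 3 of them, those of Grem1, Bmp6 and Id3. Among 32851 mouse promoters of this length, 9.6% held the former and 42.2% the latter. GC content was 63.2% for Bmp4, 72.0% for Grem1 and 68.0% for Msx1, against a median of 52.4% over all promoters. The windows of Bmp6, Id3 and Msx2 lie within the annotated span of their own genes. All motif matches given here are letters in a window and not evidence of binding.

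Levels between genes were compared per exon length and library total (RPKM scale), and only within a table. In the wild-type germline libraries the order had Id3 at 19.7 ± 6.49, Id1 at 12.8 ± 2.46 and Msx1 at 9.16 ± 1.88 at the top. It went on with Bmp7 at 6.66 ± 0.933, Bmp4 at 2.77 ± 1.15, Msx2 at 1.57 ± 0.620 and Bmp6 at 1.18 ± 0.294, and ended with Bmp2 at 0.386 ± 0.142 and Grem1 at 0.259 ± 0.291 (RPKM scale, SD, n = 3). Gdf7 was at or under 3 counts in every wild-type library and was not placed in the order. The target genes Id3, Id1 and Msx1 thus lay above every ligand, and Bmp7 was the most abundant ligand. The ranges of Id3 and Id1, Msx1 and Bmp7, Msx2 and Bmp6, and Bmp2 and Grem1 overlapped between neighbours. In the 2 wild-type libraries of the inducible comparison the order was the same, from 35.2 ± 4.18 for Id3 through 9.87 ± 0.780 for Bmp7 to 0.330 ± 0.0953 for Grem1, and among neighbours the ranges overlapped for Msx1 and Bmp7 only.

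In the germline knockouts the BMP genes lay above wild type on average. All 9 members that passed the filter of a mean of 10 normalized counts had a log2 fold change above 0, with a median of 0.74, against -0.04 over all 13938 genes tested. Bmp2, Bmp6 and Msx2 passed the study's thresholds, which ask for a 1.5-fold difference and an unadjusted P of 0.05 or less (limma), 3 of 9 members where 2.07% of all genes were called higher. None was lower, where 0.667% of all genes were called. Because the members were chosen with this contrast known, nothing is read from these counts. The inducible KO libraries lay below WT for these genes. All 9 tested members had a log2 fold change under 0, with a median of -0.53 against 0.00 over the 14081 genes tested. Bmp2, Bmp6, Grem1 and Msx2 were called lower, 4 of 9 members where 0.490% of all genes were, and none was called higher, where 0.802% of all genes were. Nearest to the fold threshold on either side stood Id3 (log2 fold change 0.68) and Msx1 (0.55) among germline values and Bmp6 (-0.87) and Bmp4 (-0.53) among inducible values. No member passed an adjusted p of 0.05 (Benjamini-Hochberg, limma). Over all genes 0.00717% passed it for the germline KO and 0.0355% for the inducible KO.

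Bmp2, one of the ligands of the dorsal midline (chr2:133377895-133388621 in NCBIM37, plus strand), measured 10.8, 22.0 and 24.0 normalized counts (germline WT) and 47.6, 72.9 and 32.1 (germline KO). Every knockout library was above every wild-type library, with a log2 fold change of 1.37 ± 0.46 (± standard error here and below for every log2 fold change). Its inducible values were 82.8 and 90.5 (inducible WT) and 50.7, 51.1 and 14.3 (inducible KO), a log2 fold change of -1.34 ± 0.52. Here all knockout libraries were lower, and without replicate 3, the lowest, the log2 fold change was -0.75.

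Bmp4, the closest relative of Bmp2 (chr14:47003195-47010344, minus strand), measured 65.7, 63.1 and 126 (germline WT) and 308, 74.1 and 141 (germline KO), a log2 fold change of 0.87 ± 0.54. Knockout replicates 1 and 3 were above all wild-type libraries, whereas replicate 2 fell among them. Its inducible values were 234 and 295 against 193, 201 and 154 normalized counts (log2 fold change -0.53 ± 0.16), and the groups did not overlap. Bmp4 shares 89 exon bases with Gm15217 on the other strand, and whether the counting used strand is not given in the sources used here.

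Bmp6 and Bmp7 belong to another branch of the ligand family. Bmp6 (chr13:38436995-38592183, plus strand) measured 47.1, 52.9 and 75.3 (germline WT) and 107, 110 and 76.4 (germline KO), a log2 fold change of 0.74 ± 0.29. The groups did not overlap, but knockout replicate 3 exceeded wild-type replicate 3 by little more than 1 count. Its inducible values were 170 and 218 against 101, 128 and 90.5 (log2 fold change -0.87 ± 0.19), all knockout libraries being lower. Bmp6 shares 236 exon bases with Txndc5 on the other strand. Bmp7 (chr2:172693513-172765822, minus strand) had the smallest standard errors of the members. It measured 317, 366 and 426 (germline WT) and 554, 431 and 524 (germline KO), a log2 fold change of 0.45 ± 0.18, and, with the inducible allele, 911 and 1023 against 864, 805 and 713 (log2 fold change -0.29 ± 0.10). Neither pair of groups overlapped, and neither difference reached 1.5-fold.

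Gdf7, a ligand of the roof plate (chr12:8304740-8308760, minus strand), was close to the floor of 3 counts and was not tested. It measured 1.13, 2.10 and 2.99 (germline WT) and 17.0, 0.80 and 6.03 (germline KO), so knockout replicates 1 and 3 stood above the floor. The inducible libraries held 0 and 2.10 (WT) and 6.86, 0.855 and 1.11 (KO). No order can be read from values at or under 3 counts. Gdf7 shares 62 exon bases with AC122860.1 on the same strand.

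Grem1 encodes gremlin, a secreted protein that binds BMP2, BMP4 and BMP7 (chr2:113586321-113598803, minus strand). It had the largest standard errors of the tested members. Its values were 4.40, 6.09 and 34.2 normalized counts (germline WT) and 52.7, 7.05 and 26.1 (germline KO), a log2 fold change of 1.04 ± 0.95. The groups overlapped, with wild-type replicate 3 above knockout replicates 2 and 3. Its inducible values were 26.6 and 40.3 (inducible WT) and 8.70, 5.31 and 24.1 (inducible KO), a log2 fold change of -1.55 ± 0.57. All knockout libraries were lower there, replicate 3 by under 3 counts.

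Msx1 and Msx2, homeobox repressors induced by BMP at the dorsal midline and by other signals, did not follow each other library by library in the germline comparison. Msx1 (chr5:38211724-38215822, minus strand) measured 198, 301 and 236 (germline WT) and 712, 160 and 388 (germline KO), a log2 fold change of 0.55 ± 0.51, with knockout replicate 2 below every other library. Msx2 (chr13:53562250-53568443, minus strand) measured 28.7, 68.0 and 63.0 (germline WT) and 351, 160 and 131 (germline KO), a log2 fold change of 1.94 ± 0.48. This was the largest difference among the members, 4.02 times the wild-type mean, with all knockout libraries higher. With the inducible allele Msx1 measured 481 and 596 against 433, 452 and 385 (log2 fold change -0.34 ± 0.12). Msx2 measured 154 and 231 against 117, 105 and 56.8 (log2 fold change -1.08 ± 0.32). Both were lower in every knockout library.

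Id1 and Id3 encode helix-loop-helix proteins that lack a DNA-binding domain and hold progenitors back from differentiation. Id1 (chr2:152561987-152563146, plus strand) measured 178, 186 and 252 (germline WT) and 500, 130 and 291 (germline KO), a log2 fold change of 0.39 ± 0.46. Without knockout replicate 1 its log2 fold change turned to -0.06. Id3 (chr4:135699412-135701670, plus strand) measured 324, 486 and 652 against 915, 554 and 842 (log2 fold change 0.68 ± 0.30). The groups overlapped for both. Among inducible libraries Id1 measured 478 and 578 against 501, 494 and 404 (log2 fold change -0.18 ± 0.13). Id3 measured 1407 and 1670 against 1188, 1245 and 921 (log2 fold change -0.47 ± 0.14). Id3 was lower in every knockout library. Id1 was the only tested member whose groups overlapped in that comparison.

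**Figure D1:**
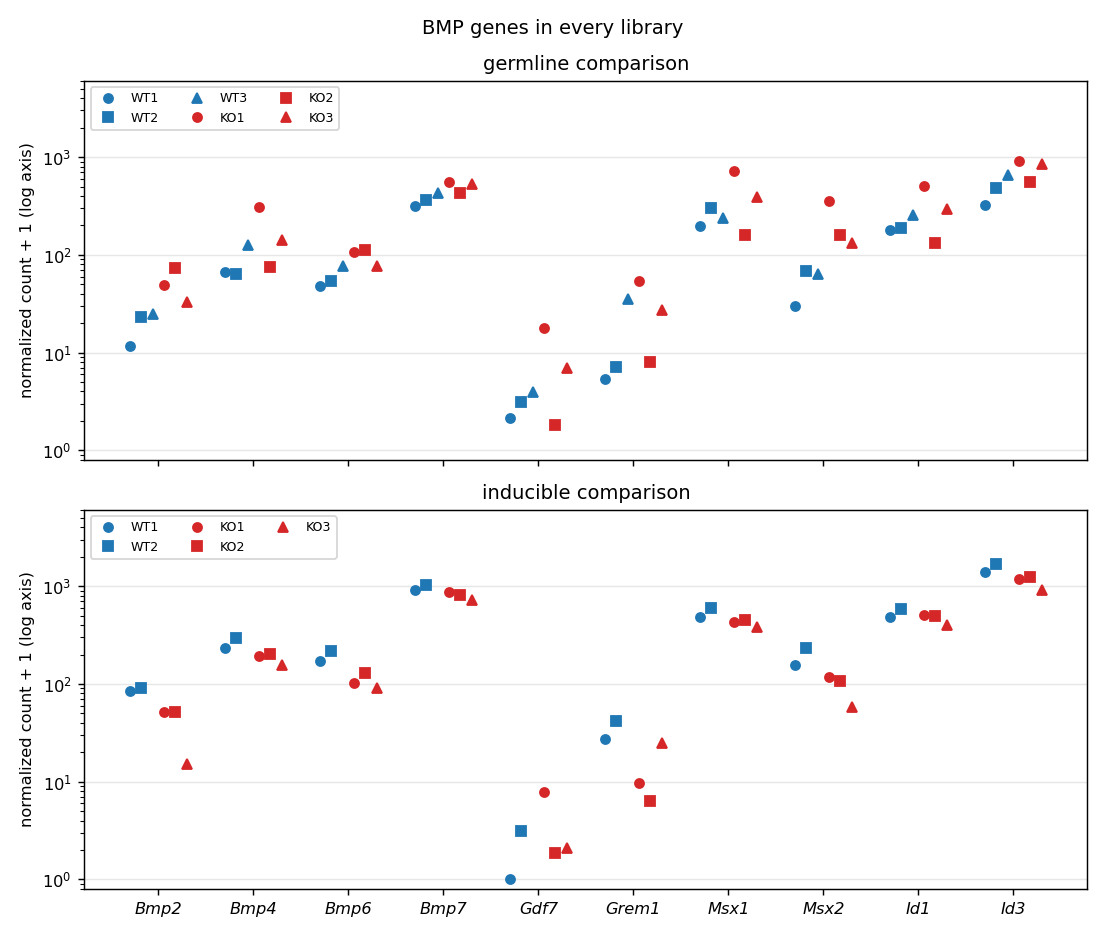
Normalized count + 1 (log axis) of the 10 BMP genes in every library of the germline (top) and the inducible comparison (bottom), with wild type in blue and knockout in red and the marker shape giving the replicate. In the germline panel the red points of Msx2, Bmp2, Bmp6 and Bmp7 lie above all blue points, and in the inducible panel the red points lie below the blue points for every gene but Id1 and Gdf7.

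Every germline knockout library lay above every wild-type library for 4 of the 9 tested members (Bmp2, Bmp6, Bmp7 and Msx2), where 5.90% of all genes tested behaved so and 7.55% had every knockout library below wild type. For the inducible allele 8 of 9 lay below wild type in every knockout library, where 12.2% of all genes did and 10.4% lay above. The comparisons use separate wild-type libraries and were normalized separately, and the difference between them was not tested.

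The members did not move evenly across libraries. Each library was set against the wild-type mean on the log2(normalized count + 1) scale. The median over the 9 tested members was -0.29, 0.00 and 0.39 (germline WT) and 1.36, 0.23 and 0.79 (germline KO). Germline knockout replicate 1 was highest for 7 of the 9 tested members, while replicate 2 was highest for Bmp2 and Bmp6 and lowest for Msx1 and Id1. Wild-type replicate 1 was lowest for 6. Without knockout replicate 1 the log2 fold change was 0.05 for Msx1, 0.34 for Bmp4 and 0.42 for Grem1, and the median over the members was 0.42 in place of 0.74. Inducible medians were -0.16 and 0.16 (WT) and -0.45, -0.39 and -0.74 (KO). Wild-type replicate 2 was highest for all 9 tested members and knockout replicate 3 lowest for 8. Without inducible wild-type replicate 2 only 1 wild-type library remained, and the log2 fold change of Msx1 was -0.19 in place of -0.34. For the germline allele 6 members (Bmp2, Bmp4, Msx1, Msx2, Id1 and Id3) were called without knockout replicate 2, where calls over all genes went from 382 to 1229. Only Msx2 was called without wild-type replicate 1, where 157 of all genes were. The members were chosen with these contrasts known, so nothing is read from these counts.

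**Figure D2:**
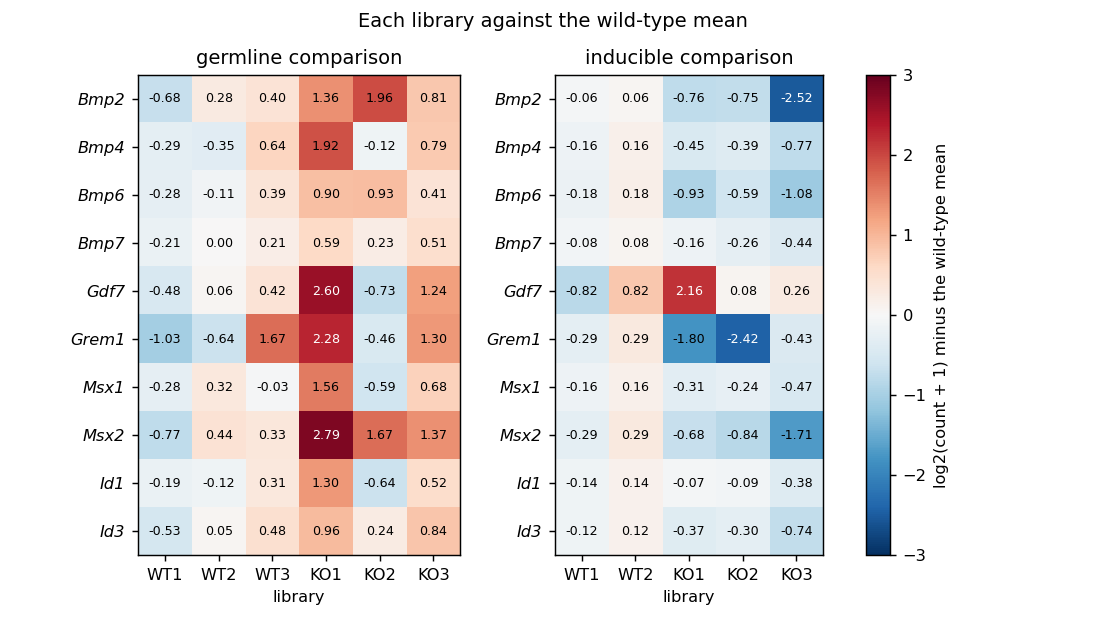
Difference of log2(normalized count + 1) from the wild-type mean for each BMP gene (rows) in each library (columns) of both comparisons, red above and blue below. Germline knockout replicate 1 is red in all rows, replicate 2 is red for Bmp2 (1.96), Msx2 (1.67) and Bmp6 (0.93) but blue for Msx1 (-0.59) and Id1 (-0.64), and the inducible knockouts are blue in all rows but Gdf7, which lies near the floor.

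Other tissues of the embryonic head express BMP genes, and their markers moved with single libraries. In bulk RNA, fewer cells of a type and less RNA per cell cannot be told apart. The summed level of 14 markers of cranial mesenchyme and meninges reached 7107, 5156 and 9128 normalized counts (germline WT) and 22250, 529 and 11443 (germline KO). It was thus highest in the library where 7 tested members peaked and lowest in knockout replicate 2. There Foxc2 and Tbx18 were at 0, while Prrx1 measured 427, against 728, 735 and 818 in wild type, and made up most of the sum. None of the 14 was called in either comparison (limma, with 0 germline and 2 inducible markers at an unadjusted P of 0.05). The 12 surface ectoderm markers summed to 112, 185 and 211 against 760, 129 and 392, with 1 of 8 tested genes, Krt5, called higher. Krt5 measured 0, 0.820 and 0 (germline WT) and 48.6, 1.62 and 40.2 (germline KO) and passed the filter through its knockout values alone, so nothing is read from its call. The 12 endothelium markers summed to 2425, 1846 and 3500 against 3959, 941 and 2963, with none called (0 at an unadjusted P of 0.05). Without knockout replicate 2, where 6 members were called, 13 of the 14 mesenchyme and 8 of the surface ectoderm markers were called higher as well. In that run 1229 of the 14008 genes tested were called, 47.8% of them higher. Some surface ectoderm markers, such as Krt5 and Krt19, passed the filter through their knockout values alone, so nothing is read from these counts. Without knockout replicate 1 or 3 no surface ectoderm marker was called higher. The part of these tissues in the members' values was not tested.

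Markers of the cortical hem, the midline tissue that makes Wnt and BMP ligands, had a higher sum in the germline and a lower sum in the inducible knockout libraries. This list and the other marker lists were chosen with earlier results of these data known, so nothing is read from their counts of calls. The 12 hem markers summed to 5836, 9093 and 9378 (germline WT) and 13427, 11919 and 10288 (germline KO). All 12 had a log2 fold change above 0 (median 0.61), and 4 were called higher, where 2.07% of all genes were. These were the Wnt ligand Wnt8b (log2 fold change 0.90 ± 0.32) and Wnt co-agonists. The co-agonists were Rspo1 (log2 fold change 0.80 ± 0.26), Rspo2 (1.03 ± 0.32) and Rspo3 (0.60 ± 0.24). None had an adjusted p under 0.05 in limma. The inducible hem sums were 20177 and 20044 (inducible WT) and 17516, 18123 and 11707 (inducible KO). All 11 tested markers had a log2 fold change under 0, with a median of -0.42. Of these 1, Rspo1, was called lower (log2 fold change -0.84 ± 0.28), where 0.490% of all genes were. The hem calls were 1 without germline wild-type replicate 1 or 2. For the inducible allele they were 0 without knockout replicate 3 and 2 to 4 without knockout replicate 1 or 2. Choroid plexus markers, of the midline epithelium next to the hem, had germline sums of 6492, 7185 and 2256 against 1869, 1423 and 3146, which overlap. Of the 10 tested, 1 had a log2 fold change above 0 (median -0.40). Ttr and Kcne2 were called lower, 2 of 10 where 0.667% of all genes were. None was called lower without wild-type replicate 1 or 2 or knockout replicate 1, and 3 to 4 were without wild-type replicate 3 or knockout replicate 3. The inducible sums were 4871 and 5617 against 4768, 3772 and 2610, and 1 of the 10 tested had a log2 fold change above 0 (median -0.49). Foxj1 and Clic6 were called lower, 2 of 10 where 0.490% of all genes were. With a knockout library left out, 1 to 6 were called lower. Inducible mesenchyme sums were 19581 and 12438 against 14793, 17186 and 17400, where WT and KO overlapped. Inducible surface ectoderm sums were 389 and 453 against 288, 385 and 292, and all 6 tested markers had a log2 fold change under 0. Krt8 was called lower, 1 of 6 where 0.490% of all genes were (0 with a pseudocount of 5, 2 without knockout replicate 3). Inducible endothelium sums were 6640 and 4949 against 5225, 5924 and 7370, with none called (0 of 12 at an unadjusted P of 0.05).

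Markers of cortex and of diencephalon and ventral forebrain also differed between single libraries. The 12 markers of cortex, neural progenitors and neurons, called cortex markers here, summed to 49550, 57622 and 56806 (germline WT) and 35485, 91869 and 41948 (germline KO). Much of this sum came from Nes, Tubb3 and Dcx, progenitor or neuron genes that are not particular to cortex. In germline knockout replicate 2 Dcx (26719) and Tubb3 (14813) were higher than in any other germline library, while Nes (5312) was lowest. The 12 markers of diencephalon and ventral forebrain summed to 2527, 4067 and 3883 against 6561, 2964 and 3468. Germline knockout replicate 1, where 7 tested members peaked, thus had the lowest cortex sum and the highest sum of the other list. A large part of the latter sum was Tcf7l2, with 3212 normalized counts there against 283, 560 and 593 in wild type. Gbx2 held 208, and both encode transcription factors of the diencephalon. The list did not move together. Its other markers lay below, within or above the wild-type range in that library, Dlx1 at 955 against 1093, 1210 and 1405. The inducible sums were 106266 and 103526 against 107736, 100105 and 107407 for cortex and 10125 and 4782 against 5451, 6715 and 11884 for the other list, and both overlapped. A large part of the latter came from Dlx1, a ventral forebrain gene, with 3381 and 1943 against 2069, 2422 and 4364. No marker of either list was called in either comparison (12 cortex markers tested in each, 0 and 1 at an unadjusted P of 0.05; 11 and 12 of the other list tested, 0 at that P). Without germline knockout replicate 2, 5 cortex markers were called lower and 2 markers of the other list higher, where 1229 of all genes were called. Without germline knockout replicate 3, 1 marker of the other list was called higher, where 1020 of all genes were called. Leaving out an inducible wild-type library left only 1, so calls from those runs are not given. The part of a different share of these regions in the members' values was not tested.

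**Figure D3:**
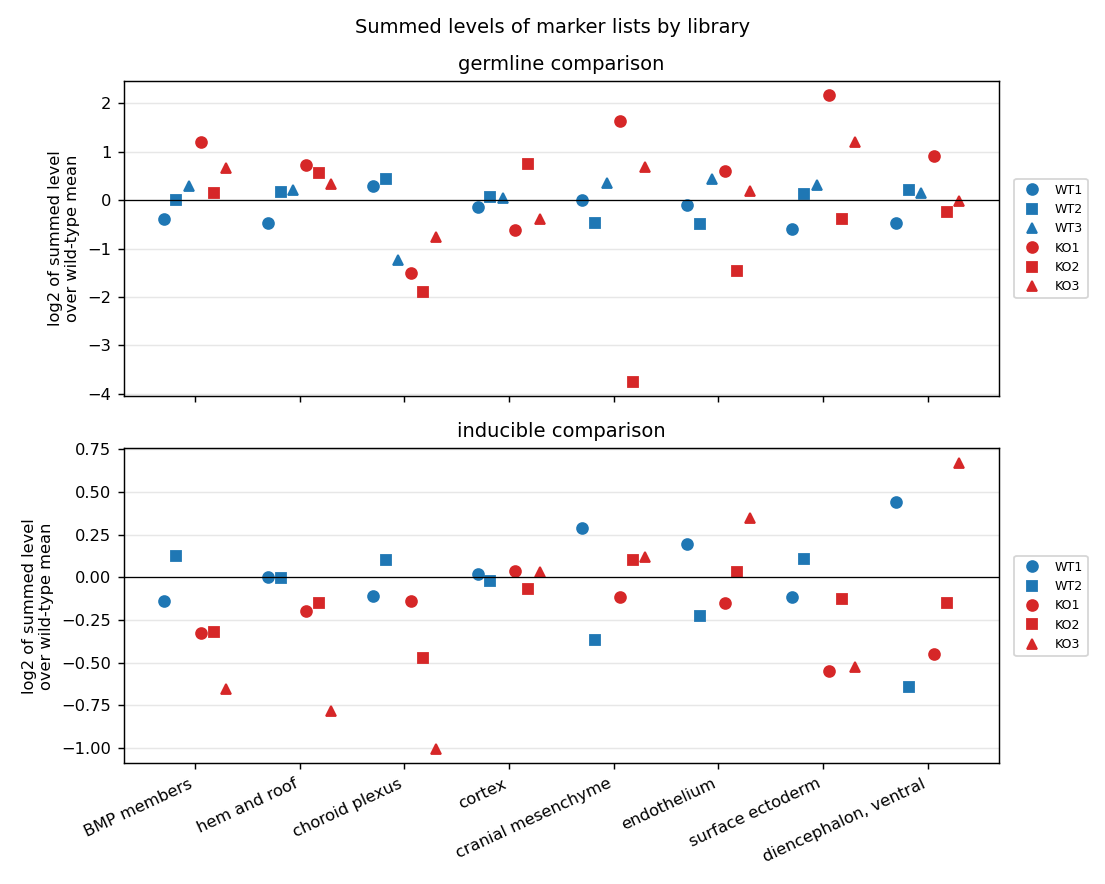
Summed normalized counts of the BMP genes and of 7 marker lists in every library, as log2 of the ratio to the wild-type mean of the same comparison, with wild type in blue, knockout in red and the marker shape giving the replicate. The germline BMP and hem sums of all knockout libraries lie at or above those of wild type except that BMP knockout replicate 2 (1700) lies below wild-type replicate 3 (1891), while the mesenchyme sum runs from 529 to 22250.

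The germline libraries were also set apart by their Y-linked sum. Among those with a sum of at least 1376 (wild-type replicates 1 and 3, knockout replicate 3) the log2 difference of knockout from wild type ran from 0.35 for Bmp6 to 1.59 for Msx2 over the 9 tested members, with a median of 0.84. Among the others (wild-type replicate 2, knockout replicates 1 and 2) it ran from 0.17 for Msx1 to 1.79 for Msx2, with a median of 1.02. In knockout replicate 2 of the latter Msx1 (160 against 301 normalized counts) and Id1 (130 against 186) were below wild-type replicate 2. The members were chosen from the values of these same libraries, so their direction within each set is no further evidence, and with 1 or 2 libraries a group there is no test.

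Few other genes of the BMP pathway passed the thresholds. Of 68 further pathway genes, 56 were tested in the germline comparison, of which 2 were called higher and 0 lower (3 at an unadjusted P of 0.05, none adjusted). The median log2 fold change was 0.08. With the inducible allele 58 were tested, of which 0 were called higher and 2 lower (5 at an unadjusted P of 0.05, none adjusted), with a median of -0.05. These shares stand beside 2.07% and 0.667% of all genes called higher and lower for the germline KO and 0.802% and 0.490% for the inducible KO.

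Among the other ligands 7 of 14 were tested in each comparison. None was called in the germline knockouts (0 at an unadjusted P of 0.05). Gdf5, known for its part in joint formation, fell in the inducible knockouts from 154 and 145 normalized counts to 101, 106 and 74.6 (log2 fold change -0.68 ± 0.18, adjusted p = 0.750 in limma). All 3 knockout libraries were lower. Without knockout replicate 3 the fold was under the threshold (log2 fold change -0.53). Its germline values were 37.2, 85.5 and 51.8 against 25.5, 12.4 and 76.3, which overlap.

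None of the receptors and co-receptors was called, with 12 tested for the germline KO and 13 for the inducible KO (0 and 2 at an unadjusted P of 0.05). The type I receptor Bmpr1a measured 3513, 3003 and 3607 (germline WT) and 3895, 2333 and 3162 (germline KO). The type II receptor Bmpr2 measured 3252, 3418 and 3712 against 3615, 5159 and 2917. Both pairs of groups overlapped.

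All 12 Smads and Smad regulators were tested in both comparisons, of which 1 was called higher in the germline and none in the inducible comparison (0 at an unadjusted P of 0.05). The called gene was Smad7, an inhibitory Smad that is itself a target of the pathway. It measured 191, 235 and 235 (germline WT) and 424, 399 and 243 (germline KO), a log2 fold change of 0.66 ± 0.25 with an adjusted p = 0.779 in limma. All knockout libraries were higher, replicate 3 by less than the spread of WT. The call was lost when any single wild-type library, or knockout replicate 1 or 2, was left out (log2 fold change 0.51 to 0.71). Its inducible values were 297 and 332 against 282, 289 and 264 (log2 fold change -0.17 ± 0.10). The receptor-regulated Smad1 and Smad5 and the shared Smad4 were not called in either comparison.

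Antagonists and extracellular modulators other than Grem1 numbered 21, of which 17 and 18 were tested. The gene Tll2, which encodes a tolloid-like protease of the family that cleaves chordin, was called in both comparisons. With the germline allele it rose from 32.9, 23.7 and 27.2 to 54.8, 56.3 and 45.2 normalized counts (log2 fold change 0.88 ± 0.29, adjusted p = 0.779 in limma). In the inducible knockouts it fell from 60.1 and 61.8 to 24.2, 36.1 and 38.1 (log2 fold change -0.90 ± 0.25, adjusted p = 0.765 in limma). Neither pair of groups overlapped. The germline call was lost without wild-type replicate 2 or 3 or knockout replicate 1 (log2 fold change 0.77 to 0.87). The BMP antagonists Nog, Chrd and Fst were not called. Nog measured 114, 171 and 173 against 165, 297 and 113 in the germline comparison and 303 and 304 against 309, 277 and 237 in the inducible comparison.

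Of the 12 other target genes, Smad7 was the only gene called in the germline comparison, and none was called in the inducible comparison (0 at an unadjusted P of 0.05). The median log2 fold change was 0.13 and -0.20. Id2 and Id4, relatives of Id1 and Id3, showed log2 fold changes of -0.14 (standard error 0.35) and -0.25 (0.23) in the germline and 0.14 (0.15) and 0.00 (0.12) in the inducible knockouts. Lmx1a, a regulator of the roof plate and hem, measured 180, 265 and 281 against 290, 494 and 299 in the germline (log2 fold change 0.56 ± 0.28) and 462 and 633 against 451, 430 and 258 in the inducible comparison (log2 fold change -0.55 ± 0.25).

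**Figure D4:**
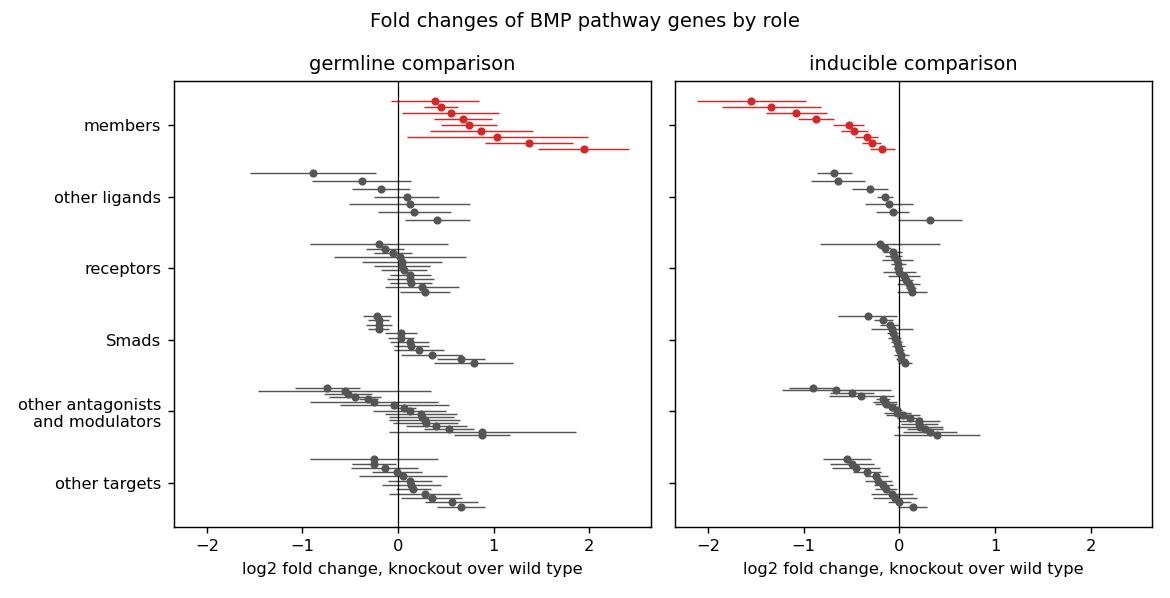
Log2 fold change of knockout over wild type with its standard error for every tested gene of 6 groups, the members in red and the other pathway genes in grey, in the germline (left) and the inducible comparison (right). A gene in 2 lists, such as Smad7, is drawn in both. Members spread from 0.39 to 1.94 on the left and from -1.55 to -0.18 on the right, while receptors stay between -0.20 and 0.28 on the left and between -0.20 and 0.13 on the right.

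The members resembled each other over libraries to differing degrees. Against the mean of the 9 standardised member profiles, Pearson's r was 0.971 over 6 germline and 0.979 over 5 inducible libraries for Bmp7, and 0.959 and 0.988 for Id3. It was 0.886 and 0.457 for Grem1 and 0.674 and 0.906 for Bmp2. Each gene is part of the mean it was set against. Of 13732 other genes tested in both comparisons, 17 reached an r of at least 0.9 in both. The 5 most alike, ranked by the smaller r, were Kirrel (0.968 and 0.962), which encodes an adhesion protein, Cnksr3 (0.949 and 0.959), Rbms2 (0.949 and 0.968), which encodes an RNA-binding protein, Ajuba (0.948 and 0.962), a LIM-domain protein gene, and Hhat (0.942 and 0.987), whose product attaches palmitate to Hedgehog ligands. The points share libraries and their normalization, so these are descriptions without a test. None of the 5 passed the thresholds in either comparison. Kirrel measured 690, 957 and 1208 against 1581, 996 and 1314 in the germline and 2368 and 2556 against 2163, 2125 and 2077 normalized counts in the inducible comparison.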

How the data were processed

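Poly(A) RNA was sequenced on an Illumina instrument. Alignment to mm9 by the authors used TopHat (1.2.0 in the submitters' processing notes), and reads on the exons of a RefSeq gene were summed and scaled with edgeR's TMM method. The deposited signal is this normalized count for each gene and library, neither whole nor divided by length nor logged, so no count model was fitted, and read depth is unknown. This scaling assumes that most genes do not change. The tables of the germline and the inducible comparison were normalized separately, and each was analysed alone. No per-sample column was left unused (0).

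Values were analysed as log2(normalized count + 1) with limma 3.58.1 (lmFit, eBayes with trend, two-sided) in R 4.3.3, tested on simulated data, over genes with a mean of at least 10. Fold changes on this scale understate changes of low genes. As in the study, a call needed a 1.5-fold difference and an unadjusted P of 0.05 or less. Adjusted values are from Benjamini-Hochberg adjustment over all genes tested. Levels at or under 3 counts were not ordered. Gene lengths and positions came from GENCODE M1 on NCBIM37, promoters from RefSeq.

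The members and all lists were chosen with earlier results of these data known. Named genes are the 10 members, every called gene of the 5 other pathway lists, the 5 genes most like the mean member profile and up to 3 markers a list. Rspo3 among the hem markers, Bmpr1a, Bmpr2, Id2, Id4, Lmx1a, Nog and other pathway genes named without a call were added for their role. Nes, Tubb3 and Dcx among the cortex markers were added for their share of the sum. Groups and replicate numbers came from the sample labels. Whether the numbers pair littermates is not known, and the main fit did not pair the samples. Alternatives were another pseudocount, no filter, quantile normalization, the RPKM scale, array weights, a replicate block, a Y-linked covariate and leaving out each library.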

Additional observations from a re-analysis of the deposited data

Results flagged for a closer look

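Among the members, the other pathway genes, the hem markers and the 5 genes most like the members, 12 genes took opposite directions between comparisons. Each had every germline knockout library above wild type and every inducible knockout library below it. These were 4 of 9 tested members and 2 of the 5 genes most alike. Other pathway genes gave 3 (56 tested for the germline KO, 58 for the inducible KO). Hem markers gave 4 (12 and 11 tested), with Lmx1a in both lists. The other marker lists are not part of this count. Of the 13741 genes tested in both comparisons, 1.05% lay above wild type in every germline and below it in every inducible knockout library, and 1.11% did the reverse. The difference between comparisons was not tested, because the tables were normalized separately and share no library. The difference of the log2 fold changes, germline minus inducible, was 2.72 for Bmp2, 1.61 for Bmp6, 0.73 for Bmp7 and 3.02 for Msx2, which were chosen with this pattern known. It was 0.83 for Smad7, 1.78 for Tll2 and 1.11 for Lmx1a among the other pathway genes, and 1.5 for Wnt8b, 1.63 for Rspo1 and 1.84 for Rspo2 among the hem markers. Ajuba (0.52) and Hhat (0.63) were picked for their likeness to the members, which fixes their direction. In the inducible comparison the 4 Y-linked genes summed to between 2389 and 3209 normalized counts in the knockout and to 1.96 and 4.24 in the wild-type libraries, which cannot be told apart from genotype. Groups of 2 or 3 libraries are too small for a test of outlying samples.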

How the results depend on the processing

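All tested members kept their direction under every alternative run, except Id1 in the germline comparison without knockout replicate 1 (log2 fold change -0.06). Without germline knockout replicate 1 the log2 fold changes of Msx1 (0.05), Bmp4 (0.34) and Grem1 (0.42) and the median over the members (0.42) were lower by over 1.5 times, and without inducible knockout replicate 3 so was that of Bmp2 in size (-0.75). Changes of over 1.5 times upward came without germline knockout replicate 2 for Bmp4 (1.36), Grem1 (1.79), Msx1 (1.12) and Id1 (0.91), and without wild-type replicate 3 for Grem1 (1.88). Without germline wild-type replicate 1, Grem1 (0.52) and Id3 (0.42) were lower by as much, and among inducible values Msx1 was so without wild-type replicate 2 (-0.19) and Id1 moved from -0.18 to between -0.32 and -0.04. Alternatives that kept every library also moved some values by over 1.5 times. Germline values reached 1.59 for Grem1, 1.08 for Msx1 and 0.83 for Id1. Inducible values reached -0.75 for Bmp2 and -0.08 for Id1. On the RPKM scale 8 members were tested in each comparison. In the germline comparison the members called higher were 3, against 7 with array weights and 1 with the Y-linked level as covariate, and 1 to 6 with a library left out. Other pathway genes called higher were 2, against 4 with array weights (and 1 lower) and 0 with the Y-linked covariate, and 0 to 4 higher and 0 to 2 lower with a library left out. Marker genes called higher were 5 and lower 2, against 18 and 5 with array weights, 10 higher after quantile normalization, 4 lower without a filter and 0 lower with the covariate, and 2 to 29 higher and 0 to 7 lower with a library left out. The 29 came without knockout replicate 2. In the inducible comparison the members called lower were 4, and 3 to 4 with a knockout library left out. Other pathway genes called lower were 2, and 1 to 5 with a knockout library left out. Marker genes called lower were 4 and higher 0, against 7 and 1 with array weights, and up to 11 lower with a knockout library left out. The cause of these changes was not tested.

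The labels do not say whether replicate numbers pair littermates. The correlation of deviations from the group means was -0.116, 0.306 and 0.247 for same-numbered germline libraries. For differently numbered germline libraries it lay between -0.357 and 0.334. Same-numbered inducible libraries had -0.352 and -0.0513. Centring on so few libraries ties these values to each other, so they cannot show whether the numbers pair the libraries. With the replicate block, other pathway genes called lower in the inducible comparison were 1 and marker genes 2, and the germline members called were 2 (Bmp2 and Msx2). The Y-linked covariate was not run for the inducible comparison, where it is confounded with genotype. Smad7 and Tll2 missed the threshold with that covariate (log2 fold change 0.43 and 0.87), and so did Gdf5 in the inducible comparison with array weights and with the replicate block, where its fold fell under 1.5 (log2 fold change -0.58 and -0.53). Smad7 did so without wild-type replicate 1, 2 or 3 or knockout replicate 1 or 2 (0.51 to 0.71), Tll2 without wild-type replicate 2 or 3 or knockout replicate 1 in the germline comparison (0.77 to 0.87), and Gdf5 without knockout replicate 3 (-0.53). Over all genes 382 were called in the germline comparison (75.7% higher), against 1044 with array weights (53.6%), 186 with the covariate (56.5%) and 157 to 1229 with a library left out (47.8% without knockout replicate 2). In the inducible comparison 182 were called (62.1% higher), against 357 without a filter, 80 on the RPKM scale (52.5%) and 149 to 203 with a knockout library left out. No scaling moved the median of all genes by over 0.1.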
